A study of Mus musculus with 10 samples.

Results

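The genes described are 8 that mark cholinergic neurons and the oculomotor and trochlear motor neurons of the midbrain: Chat, Slc18a3, Slc5a7, Isl1, Isl2, Phox2a, Prph and Lhx4. They were taken by name, and all 8 of 8 were found among the 30935 gene IDs of the count table. The libraries came from mouse midbrain at embryonic day 14.5. The deletion group held 5 libraries (deletion 2, 3, 4, 5 and 6) from embryos homozygous for the loss of HAR.321, a human accelerated region in the Rbfox1 locus (Rbfox1 ΔHAR.321/ΔHAR.321). The wild-type group held 5 libraries (wild-type 1, 2, 4, 5 and 6) from Rbfox1 +/+ embryos. The series describes the samples as independent biological samples. Not given in the sources used here are the strain, the sex, and the number of mouse lines and litters. Each library held 16246892 to 20255728 counts, and levels below are CPM, the count of a gene relative to the total of its library, scaled by TMM.

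Acetylcholine is made from choline by choline acetyltransferase (Chat), loaded into vesicles by the vesicular acetylcholine transporter (Slc18a3), and its choline is taken back up by the high-affinity choline transporter (Slc5a7). In the embryonic midbrain the main neurons that use it are those of the oculomotor and trochlear nuclei, which move the eye. Phox2a is a homeodomain factor without which these nuclei do not form in mice, and the LIM homeodomain factors Isl1, Isl2 and Lhx4 act in motor neurons more widely. Prph encodes peripherin, an intermediate filament of neurons with axons in the periphery. Isl1, Isl2 and Prph are also found in sensory neurons, and Isl1 and Lhx4 in the developing pituitary.

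The cholinergic genes share an unusual layout: in the GENCODE M21 annotation (GRCm38) Slc18a3 lies inside the first intron of Chat, on the same strand. The RefSeq start sites of the pair lie 1059 bases apart. The 250 bases before the start of each of the 3 cholinergic genes are given here because these genes together define a cholinergic neuron and their levels are compared below. The sequences are those of RefSeq in GRCm38.p6, from the minus strand in each case, and all 8 genes had an entry. The coordinates are chr14:32465910-32466159 for Chat, chr14:32464851-32465100 for Slc18a3 and chr17:54299035-54299284 for Slc5a7. Capitals mark TAAT, the core that many homeodomain proteins bind, on either strand (ATTA is its reverse complement).
Chat: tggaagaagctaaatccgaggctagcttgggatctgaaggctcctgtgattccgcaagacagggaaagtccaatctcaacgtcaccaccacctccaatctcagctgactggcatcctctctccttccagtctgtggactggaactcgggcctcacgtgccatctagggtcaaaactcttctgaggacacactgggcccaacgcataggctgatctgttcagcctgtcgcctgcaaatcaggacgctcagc
Slc18a3: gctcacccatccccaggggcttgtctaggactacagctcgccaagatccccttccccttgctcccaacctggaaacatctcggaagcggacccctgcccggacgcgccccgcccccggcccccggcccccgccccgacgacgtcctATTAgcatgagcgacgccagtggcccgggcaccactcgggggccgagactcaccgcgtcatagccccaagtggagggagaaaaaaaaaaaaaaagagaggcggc
Slc5a7: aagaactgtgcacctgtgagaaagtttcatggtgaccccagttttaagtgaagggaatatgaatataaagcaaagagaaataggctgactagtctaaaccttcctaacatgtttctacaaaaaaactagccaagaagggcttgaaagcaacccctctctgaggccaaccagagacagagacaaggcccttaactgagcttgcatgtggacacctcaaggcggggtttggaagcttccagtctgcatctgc
Slc18a3 held 1 match, at position -104 from its start site, and Chat and Slc5a7 held 0. Among the other genes, Isl1 held 2 and the rest held 0. Of 27025 promoter windows of the same length, 55.3% held this core. No match says only that these letters are absent from the window.

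The tissue was checked first. The midbrain markers En1, En2, Otx2, Pax7, Pax3, Tal2, Gata3 and Barhl1 were all tested, and their summed level was 696 to 906 CPM in the deletion and 769 to 914 CPM in the wild-type libraries. Of 9 hindbrain markers 5 were at 0 in every library, and Hoxa2 had at most 15 counts in a library. Gbx2, of the anterior hindbrain, was present: it had 100, 36, 6, 12 and 7 counts in deletion 2 to 6, and 28, 12, 31, 51 and 11 counts in wild-type 1, 2, 4, 5 and 6. Slc6a2 and Dbh, from a list of 6 noradrenergic and sympathetic markers, set some libraries apart. Slc6a2, the noradrenaline transporter, stood at 5.36 and 7.88 CPM in deletion 2 and 3 but at 0, 0 and 0.158 CPM in deletion 4, 5 and 6. In the wild-type group it stood at 2.82 and 1.94 CPM in wild-type 5 and 6 and at 0.364, 0 and 0.166 CPM in wild-type 1, 2 and 4. Dbh, which makes noradrenaline, had 33 and 53 counts in deletion 2 and 3 and 5 or 6 counts in the other deletion libraries. It had 34 counts in wild-type 5, 9 in wild-type 6 and at most 4 in the other wild-type libraries. Noradrenergic neurons lie mainly in the locus coeruleus of the anterior hindbrain and depend on Phox2a. Both genotypes thus held libraries with higher and with lower Slc6a2 and Dbh. The rest of the list did not share this pattern. The summed level of the 6 markers was in effect that of Tfap2b, which averaged 717 CPM in deletion and 709 CPM in wild-type libraries. Slc6a2 averaged 2.68 and 1.06 CPM, so the sum does not speak for the other markers. This sum was lowest of each genotype in the same libraries. It was 503 and 683 CPM in deletion 2 and 3, and 581 and 614 CPM in wild-type 5 and 6. Pnmt had at most 11 counts and Hand1 at most 2 in any library. Hand2, a sympathetic marker, was at 0 in all 10 libraries.

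No difference between deletion and wild-type midbrain was detected for any of the 8 genes. Of the 8, 7 passed the filter on low counts and were tested, and 0 passed edgeR's quasi-likelihood test at a Benjamini-Hochberg adjusted p of 0.05, where 0.0589% of all 15288 tested genes did. None of the 7 had an unadjusted p under 0.05 either, against 10.5% of all tested genes (4.92% with a lower level in deletion midbrain). None of the 7 passed limma-voom, but it called 0 of all 15288 genes, so it could not set the 7 apart. DESeq2 gave none of the 7 an adjusted p, so it could not call them. Their smallest unadjusted p in its Wald test was 0.321, for Isl2. The groups overlapped for all 8 genes (the groups did not overlap for 2.49% of tested genes). Of the 7, 2 were higher and 5 lower in deletion midbrain. Their median log2 fold change, deletion over wild-type (log2FC below), was -0.01. Over all tested genes it was -0.00, and 50.7% were lower. In these bulk samples fewer cells of a type and less RNA per cell cannot be told apart. Equal levels were not shown, and the 95% interval of each gene below gives the change that these libraries allow.

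**Figure D1:**
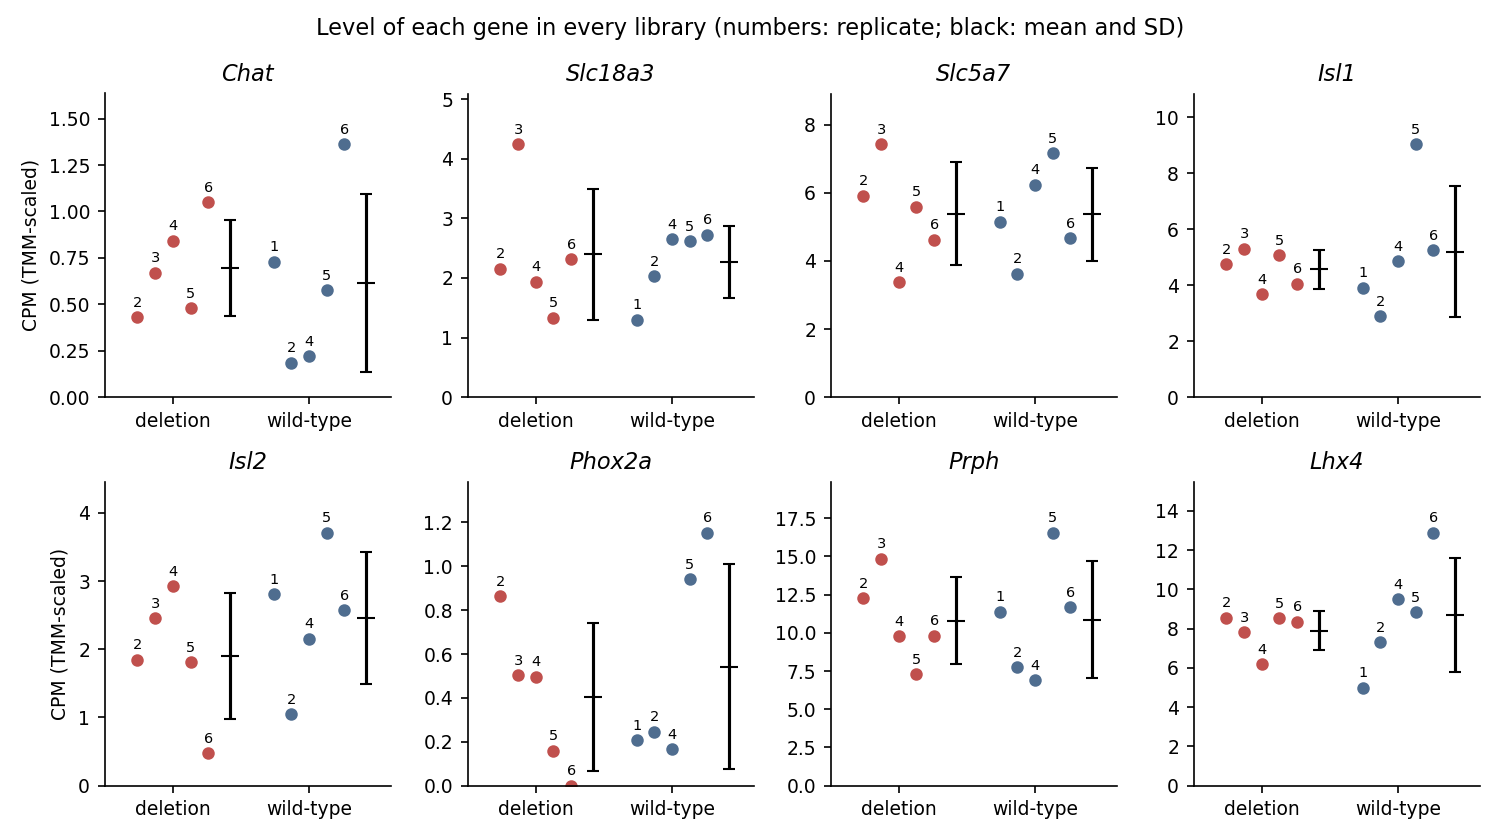
CPM (TMM-scaled) of each of the 8 genes in the 5 deletion libraries (left, red) and the 5 wild-type libraries (right, blue), numbered by replicate, with the mean and SD in black. The groups overlap in every panel, and Phox2a is at 0 in deletion 6.

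Of the cholinergic genes, Chat (Entrez gene 12647) was the lowest. It had 7, 12, 17, 9 and 20 counts in deletion 2, 3, 4, 5 and 6, and 14, 3, 4, 11 and 26 counts in wild-type 1, 2, 4, 5 and 6. Its level was 0.695 ± 0.258 CPM in the deletion and 0.614 ± 0.478 CPM in the wild-type group (SD, n = 5 each). The wild-type libraries held both the lowest value, in wild-type 2, and the highest, in wild-type 6. The log2FC was 0.17 (SE 0.49, 95% interval -0.85 to 1.18, adjusted p = 0.947 in edgeR), so a fold between 0.555 and 2.27 remained possible at this depth. It was 1.02 with the 4 libraries of higher Slc6a2 left out (adjusted p = 0.993), a fit of 3 against 3 added after seeing the data.

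Slc18a3 (Entrez gene 20508) stood at 2.16, 4.25, 1.93, 1.33 and 2.31 CPM in deletion 2 to 6, and at 1.30, 2.03, 2.65, 2.61 and 2.73 CPM in wild-type 1, 2, 4, 5 and 6. Deletion 3 was the highest of all 10 libraries, and the rest of both groups lay over the same range. The means were 2.40 ± 1.10 and 2.26 ± 0.606 CPM in the deletion and wild-type groups (SD, n = 5 each), a log2FC of 0.08 (SE 0.30, 95% interval -0.54 to 0.70, adjusted p = 0.963 in edgeR). Without deletion 3 the log2 fold change was -0.23 (adjusted p = 0.863).

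Slc5a7 (Entrez gene 63993) was measured most closely of the 3. It stood at 5.91, 7.43, 3.37, 5.59 and 4.62 CPM in deletion 2 to 6, and at 5.15, 3.63, 6.24, 7.16 and 4.67 CPM in wild-type 1, 2, 4, 5 and 6. The highest library of each group, deletion 3 and wild-type 5, differed by less than the spread within either group. Its log2FC was -0.00 (SE 0.21, adjusted p = 0.999 in edgeR), and the 95% interval on the linear scale ran from 0.736-fold to 1.36-fold.

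The 3 genes did not stand at the same level. Per kilobase of the longest annotated transcript, Slc18a3 was at 0.993 ± 0.456 CPM per kilobase in the deletion and 0.938 ± 0.251 in the wild-type group (SD, n = 5 each). Slc5a7 was at 1.04 ± 0.292 and 1.04 ± 0.265 CPM per kilobase in deletion and wild-type libraries, and Chat at 0.243 ± 0.0901 and 0.215 ± 0.167. The pooled level of Slc18a3 was thus 4.08 times that of Chat in deletion and 4.37 times in wild-type libraries, and Slc18a3 was the higher in each of the 10 libraries, by 2.12-fold to 14.2-fold. With the union of all annotated exons as the length, the ratios were 6.72 in deletion and 7.18 in wild-type libraries, and 3.48 to 23.4 in single libraries. In the GENCODE M21 annotation no exon of Chat overlapped an exon of Slc18a3. The annotation used for the counts, and how reads of this locus were assigned, are not stated in the sources used here.

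Among the transcription factors, Isl1 (Entrez gene 16392) stood at 4.74, 5.31, 3.67, 5.06 and 4.05 CPM in deletion 2 to 6, and at 3.90, 2.89, 4.86, 9.04 and 5.24 CPM in wild-type 1, 2, 4, 5 and 6. Every deletion library lay inside the wild-type range, which wild-type 5 stretched upwards. The log2FC was -0.19 (SE 0.24, 95% interval -0.68 to 0.30, adjusted p = 0.846 in edgeR), and 0.10 without wild-type 5. The coefficient of variation was 15.1% in the deletion and 45.1% in the wild-type group, and a difference in spread was not tested.

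Isl2 (Entrez gene 104360) had the log2 fold change farthest from 0 among the 7, at -0.37 (SE 0.37, 95% interval -1.14 to 0.40, adjusted p = 0.789 in edgeR). It stood at 1.85, 2.46, 2.93, 1.81 and 0.473 CPM in deletion 2 to 6, and at 2.81, 1.05, 2.16, 3.71 and 2.57 CPM in wild-type 1, 2, 4, 5 and 6. Deletion 6, with 9 counts, was the lowest library and wild-type 2, with 17, the next lowest. Its direction was the same in every alternative run, from -0.12 without deletion 6 to -0.59 without deletion 4 among the fits that left out 1 library.

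Phox2a (Entrez gene 11859) did not pass the filter. It had 14, 9, 10, 3 and 0 counts in deletion 2 to 6, and 4, 4, 3, 18 and 22 counts in wild-type 1, 2, 4, 5 and 6. The 0 in deletion 6 allows up to 3 counts, or 0.158 CPM. The highest libraries were deletion 2 in one genotype and wild-type 5 and 6 in the other. The mean log2 CPM differed by -0.39 (exact permutation test, two-sided, p = 0.595, n = 5 each), and by 0.08 without deletion 6. With no filter, edgeR gave a log2FC of -0.45 (adjusted p = 0.859). In the GENCODE M21 annotation 95 of its 2035 exonic bases overlap Inppl1, a lipid phosphatase gene on the opposite strand, so some of these few counts are uncertain. Inppl1 averaged 27.9 ± 5.87 CPM in the deletion and 26.0 ± 4.05 CPM in the wild-type group (SD, n = 5 each).

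Lhx4 (Entrez gene 16872) stood at 8.56, 7.82, 6.20, 8.52 and 8.36 CPM in deletion 2 to 6, and at 4.996, 7.32, 9.50, 8.83 and 12.9 CPM in wild-type 1, 2, 4, 5 and 6. The wild-type mean of 8.71 CPM was above each of the 5 deletion libraries, all of which were inside the wild-type range. Its log2FC was -0.14 (SE 0.19, 95% interval -0.54 to 0.25, adjusted p = 0.853 in edgeR), and 0.04 without wild-type 6. The coefficient of variation was 12.6% in the deletion and 33.4% in the wild-type group.

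Prph (Entrez gene 19132), the structural gene of the 8, had the most counts. It stood at 12.3, 14.9, 9.77, 7.30 and 9.83 CPM in deletion 2 to 6, and at 11.4, 7.75, 6.91, 16.6 and 11.7 CPM in wild-type 1, 2, 4, 5 and 6. Deletion 2 and 3 and wild-type 5 and 6 were the highest libraries of their groups. The means of 10.8 ± 2.87 and 10.9 ± 3.83 CPM in deletion and wild-type libraries (SD, n = 5 each) gave a log2FC of -0.01 (SE 0.22, 95% interval -0.49 to 0.46, adjusted p = 0.994 in edgeR).

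**Figure D2:**
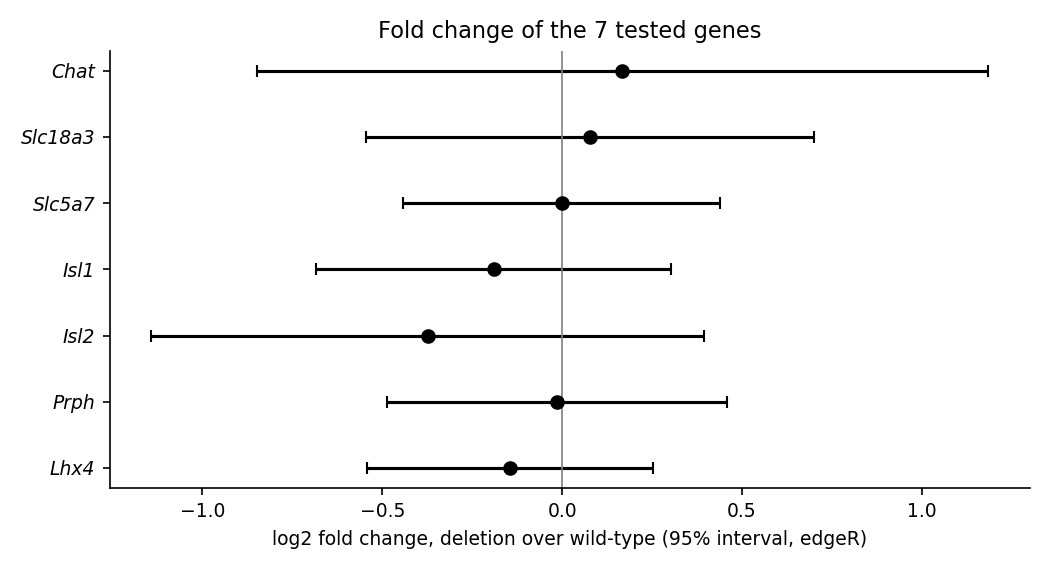
Log2 fold change of deletion over wild-type for the 7 tested genes, with its 95% interval from edgeR (n = 5 each). Every interval contains 0, and the widest belongs to Chat, from -0.85 to 1.18.

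The order of the levels was the same in both groups apart from 1 exchange. Per kilobase, Prph was first with 5.80 ± 1.54 CPM per kilobase in deletion and 5.83 ± 2.06 in wild-type libraries, and it exceeded Isl1 in all 10 libraries without overlap. Isl1 followed with 1.81 ± 0.274 and 2.06 ± 0.929, and Lhx4 with 1.43 ± 0.180 and 1.58 ± 0.528, in deletion and wild-type libraries. Isl2 had 1.03 ± 0.498 CPM per kilobase in deletion and 1.33 ± 0.525 in wild-type libraries, and Isl2 and Slc5a7 exchanged places between the groups. From Isl1 down to Slc18a3 each neighbour in this order overlapped the next in both groups, so their order is not resolved. Slc18a3 exceeded Phox2a in all 10 libraries. Phox2a, at 0.251 ± 0.209 and 0.337 ± 0.290 CPM per kilobase in deletion and wild-type libraries, overlapped Chat. By mean CPM the 8 genes lay at or below the 33.8th percentile of tested genes.

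**Figure D3:**
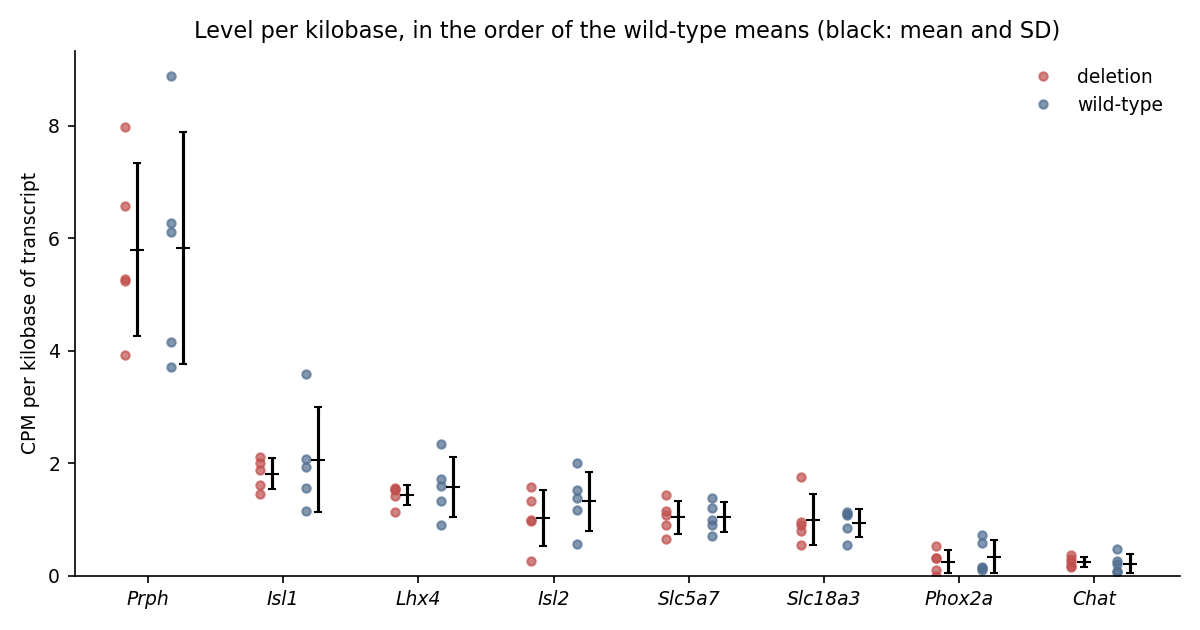
Level of each gene in CPM per kilobase of its longest annotated transcript, in the order of the wild-type means, with deletion libraries (red) left of wild-type libraries (blue) and the mean and SD in black. Prph stands above the other genes, and Phox2a and Chat lie lowest.

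The chi-square per degree of freedom, which is about 1 for counting noise alone, was 1.72 in the deletion and 6.62 in the wild-type group for Chat. It was 2.00 and 19.1 for Isl1, 2.44 and 18.4 for Lhx4, 5.09 and 7.32 for Phox2a, and 14.0 and 24.5 for Prph, in deletion and wild-type libraries. The other 3 genes had the higher value in the deletion group: 9.24 in deletion and 3.07 in wild-type libraries for Slc18a3, 8.11 and 6.21 for Slc5a7, and 8.60 and 6.63 for Isl2. The summed level of the 8 genes was 36.8, 43.3, 29.2, 30.3 and 30.7 CPM in deletion 2 to 6, and 30.5, 25.1, 32.7, 49.4 and 42.3 CPM in wild-type 1, 2, 4, 5 and 6. The sum was thus highest of each genotype in deletion 2 and 3 and in wild-type 5 and 6. These were also the libraries with the highest Slc6a2 and Dbh. Prph, with the highest mean CPM of the 8, had this pattern by itself. So did Phox2a, but on few counts: 0.503 CPM in deletion 3 and 0.496 CPM in deletion 4. Chat, Slc18a3, Slc5a7, Isl1, Isl2 and Lhx4 did not, so the pattern of the sum was not shared by all 8 genes. The part of cells from outside the midbrain in these sums was not tested. With the level of Dbh and Slc6a2 as a covariate, added after seeing the data, 0 of the 7 genes passed edgeR. In that fit 22 of all 15288 tested genes did. With those 4 libraries left out, 0 of the 7 passed. That fit called 0 of all 15382 genes it tested, so it could not set the 7 apart.

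**Figure D4:**
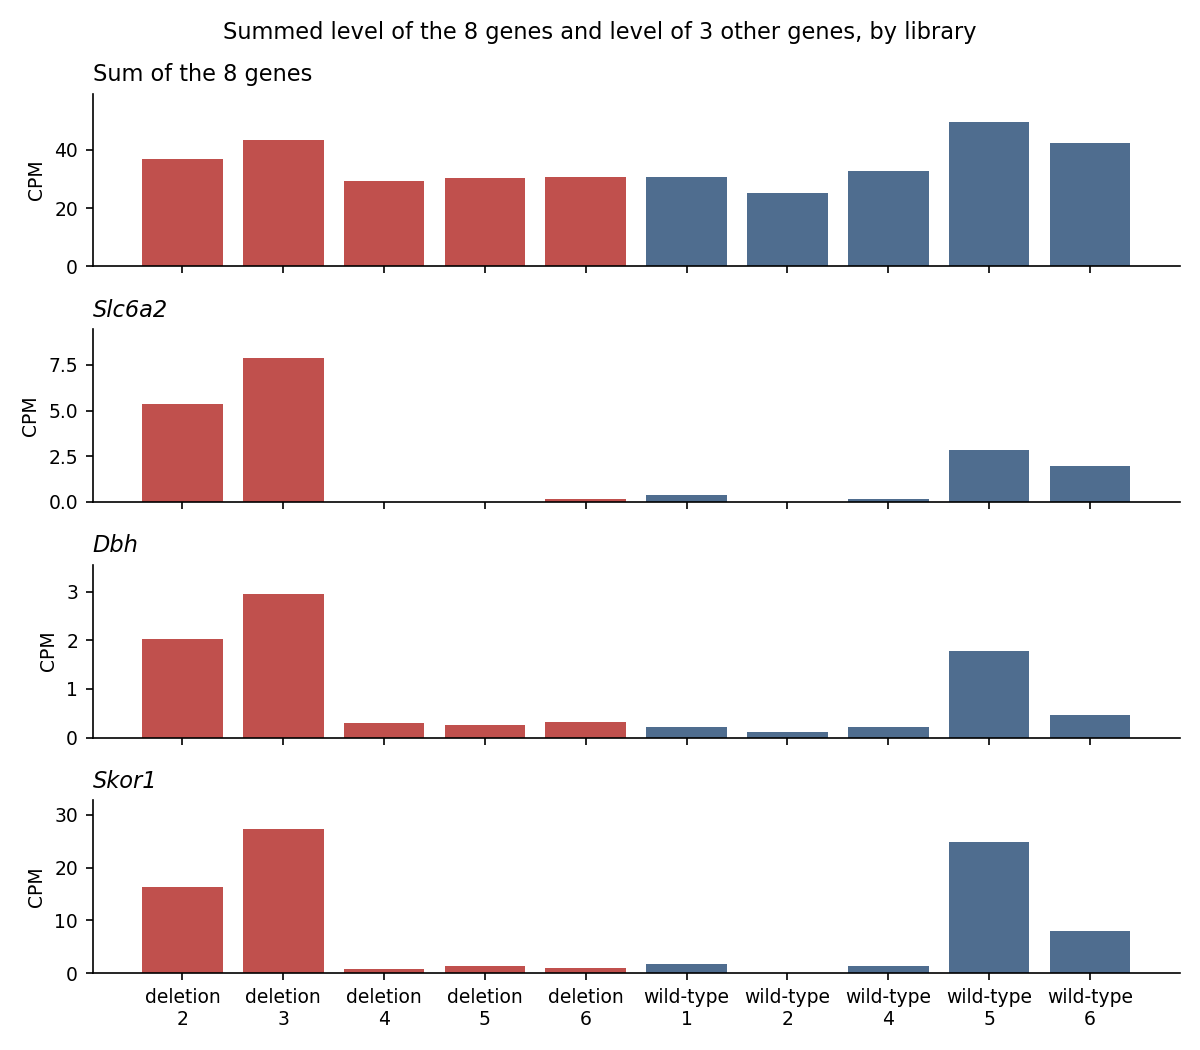
CPM in each library of the sum of the 8 genes (top) and of Slc6a2, Dbh and Skor1 (lower panels), deletion libraries in red and wild-type libraries in blue. Deletion 2 and 3 and wild-type 5 and 6 are the highest libraries of their genotype in each panel. Skor1 was chosen for its likeness in pattern to the tested genes.

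The genes most like the 8 in pattern were sought with a profile. The profile was the mean, over the 7 tested genes, of log2 CPM centred within genotype and scaled by its SD. The 8 genes with the highest Pearson r to it over 10 libraries, out of 13261, were Sema3a (r = 0.95), a secreted guide of axons, Skor1 (0.94), a transcriptional corepressor, Lamp5 (0.92), Pax2 (0.92), a factor of the boundary between midbrain and hindbrain, Il17rd (0.92), an inhibitor of FGF signalling, Katna1 (0.91), which severs microtubules, Mad2l1 (0.91), of the spindle checkpoint, and Cyp26b1 (0.91), which breaks down retinoic acid. With 10 libraries and this many genes, high values are found for any profile, so they are a description with no p. In 6 of these 8 genes deletion 2 and 3 and wild-type 5 and 6 were the highest libraries of their genotypes. The exceptions were Katna1, which was higher in deletion 5 than in deletion 2, and Mad2l1, which was higher in deletion 4 than in deletion 2. Within each genotype, the profile itself was highest in deletion 2 and 3 and in wild-type 5 and 6. Genes chosen for likeness to it share that pattern by selection, so they are no separate support for it. Skor1 stood at 16.3, 27.3, 0.843, 1.33 and 0.893 CPM in deletion 2 to 6, and at 1.77, 0, 1.27, 24.8 and 7.92 CPM in wild-type 1, 2, 4, 5 and 6. Pax2 stood at 8.56, 12.5, 3.47, 4.96 and 4.10 CPM in deletion 2 to 6, and at 2.50, 1.66, 1.88, 9.09 and 4.87 CPM in wild-type 1, 2, 4, 5 and 6. For Isl1 alone the closest genes were Cyp20a1 (r = 0.94), Plk4 (0.94) and Tsen15 (0.92), for Chat Rnf5 (0.90), Mapk1ip1l (0.90) and Mia2 (0.88), and for Phox2a Serpinh1 (0.96), Gstm1 (0.93) and Col5a1 (0.93).

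Whether the genes varied together from embryo to embryo was asked pair by pair. Over 21 pairs of the 7 tested genes, with log2 CPM centred within genotype, Pearson r was above 0 in 19, with a median of 0.37. The pairs share genes and are not independent. Pairs of other genes were not examined, so whether 19 of 21 is particular to this set was not tested. No pair passed an exact permutation test within genotype at an adjusted p of 0.05 over the 21 pairs, and 1 had an unadjusted p under 0.05. That pair was Slc5a7 and Isl1 (n = 10, Pearson r = 0.78, exact p = 0.00389, adjusted p = 0.0817; Spearman rho = 0.76, exact p = 0.0160, adjusted p = 0.337). Without deletion 4 and wild-type 2, the libraries farthest from the median of Slc5a7, r was 0.66. Chat and Slc18a3, neighbours in 1 locus, had r = 0.08 (n = 10, exact permutation p = 0.815; Spearman rho = 0.07, exact p = 0.870; adjusted p = 0.876 and 0.948), and r = -0.13 without wild-type 6 and wild-type 2. Their counts are low, and a relation between them would be hard to see. All genes of a library share its dissection and its depth.

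**Figure D5:**
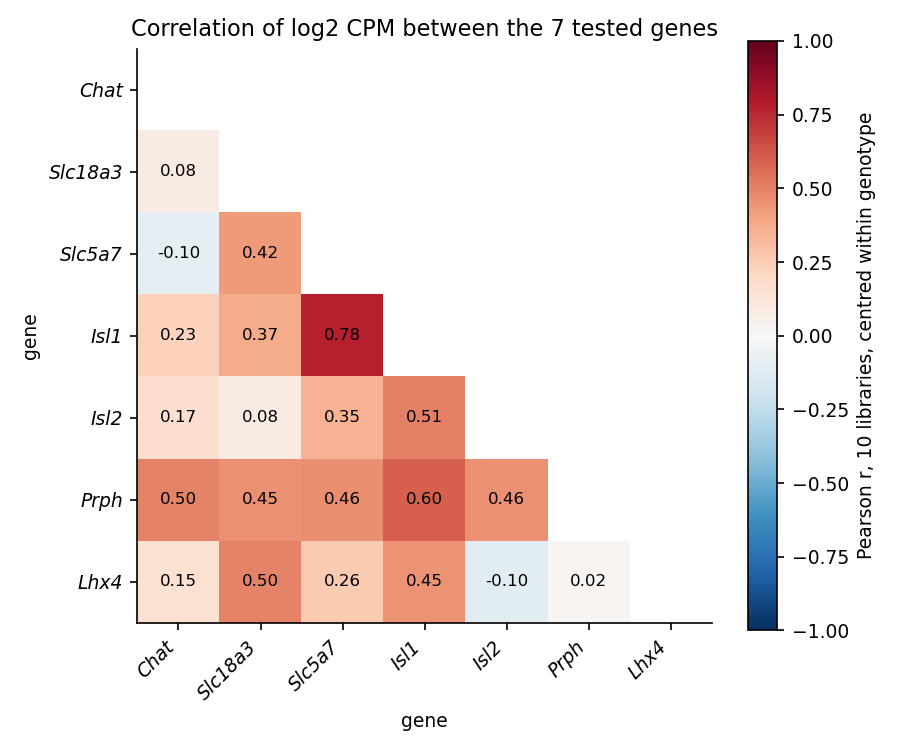
Pearson r of log2 CPM, centred within genotype, between each pair of the 7 tested genes over 10 libraries (red above 0, blue below). The highest value is 0.78 for Slc5a7 and Isl1, and 19 of 21 values are above 0. The pairs share genes, and pairs of other genes were not examined.

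The other genes of the pathway and of neighbouring cell types were compared as lists. None of the 90 genes tested in the 17 lists passed edgeR, and 5 (5.56%) had an unadjusted p under 0.05, against 10.5% of all tested genes. All 5 were higher in deletion midbrain: Chrna4, Ret and Six3, given below, and Chrna7 and Nefm, named after their values were seen. Chrna7, a nicotinic subunit, averaged 10.985 ± 1.41 CPM in deletion and 8.91 ± 0.795 CPM in wild-type libraries, and Nefm, a neurofilament, 162 ± 23.2 and 139 ± 19.6 CPM (SD, n = 5 each; adjusted p = 0.400 and 0.453 in edgeR). Of 8 genes for acetylcholine breakdown and choline supply, 7 were tested, 3 higher and 4 lower in the deletion group, and none passed. Ache, the esterase that ends the signal, had the smallest p, at 28.3 ± 4.34 CPM in the deletion and 25.2 ± 3.11 CPM in the wild-type group (SD, n = 5 each; log2FC 0.17, SE 0.11, adjusted p = 0.628 in edgeR). Colq, which anchors the esterase at the nerve-muscle junction, had 1 count in all. Of 11 subunits of neuronal nicotinic receptors 8 were tested, 5 higher and 3 lower, and none passed. Chrna4 had the smallest p of them. It stood at 105, 69.5, 94.0, 86.4 and 97.9 CPM in deletion 2 to 6, and at 70.1, 81.2, 71.2, 55.4 and 76.4 CPM in wild-type 1, 2, 4, 5 and 6. Its log2FC was 0.35 (SE 0.11, adjusted p = 0.188 in edgeR), with 4 of 5 deletion libraries above the wild-type mean. The muscle subunit Chrnb1 had a log2FC of -0.20 (SE 0.31, adjusted p = 0.883 in edgeR), while Chrnd was at 0 in every library. 3 of the 4 muscarinic receptors analysed were tested and none passed; Chrm3 had the smallest p (log2FC 0.15, SE 0.12, adjusted p = 0.726 in edgeR).

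No gene of the other motor neuron lists passed. Of 10 further transcription factors 6 were tested, 5 higher and 1 lower, and none passed. Nkx6-1, of ventral progenitors, had the smallest p, at 13.5 ± 2.03 CPM in the deletion and 11.5 ± 2.90 CPM in the wild-type group (SD, n = 5 each; log2FC 0.23, SE 0.16, adjusted p = 0.656 in edgeR). Mnx1, of spinal motor neurons, had 6 counts in deletion 4 and 0 elsewhere, and Lhx3, the close relative of Lhx4, had 2 counts in deletion and 12 in wild-type libraries. Hoxa5, of the spinal cord and posterior hindbrain, was at 0 in every library.

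All 12 genes of eye-muscle innervation disorders were tested, 6 higher and 6 lower, and none passed. Tubb6, a tubulin gene, had the smallest p, at 7.44 ± 1.46 CPM in the deletion and 8.93 ± 0.790 CPM in the wild-type group (SD, n = 5 each; log2FC -0.26, SE 0.15, adjusted p = 0.581 in edgeR). Of 12 effector genes of motor neurons 11 were tested, 9 higher and 2 lower, and none passed. Ret, a receptor of GDNF family ligands that dopaminergic neurons also carry, had the smallest p (log2FC 0.26, SE 0.11, adjusted p = 0.399 in edgeR), with 5 of 5 deletion libraries above the wild-type mean.

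Markers of other cells that carry some of the 8 genes were compared last. Of 13 sensory ganglion and Schwann cell markers 8 were tested and none passed. Their summed level was 117 to 168 CPM in the deletion and 138 to 175 CPM in the wild-type libraries, most of it from Pou4f1, which midbrain neurons also express. Tlx3 had the smallest p (log2FC 0.69, SE 0.38, adjusted p = 0.569 in edgeR). The 6 noradrenergic and sympathetic markers summed to 503 to 844 CPM in deletion and 581 to 824 CPM in wild-type libraries, nearly all from Tfap2b, the 1 that was tested (log2FC 0.02, SE 0.14, adjusted p = 0.984 in edgeR). This sum, in effect the level of Tfap2b, was lowest in the libraries where Slc6a2 was highest. It was 503 and 683 CPM in deletion 2 and 3, with 730 to 844 CPM in the other deletion libraries. In wild-type 5 and 6 it was 581 and 614 CPM, with 763 to 824 CPM in the other wild-type libraries. Pituitary and pineal markers summed to 6.93 to 11.9 CPM in deletion and 7.56 to 11.97 CPM in wild-type libraries. Of those 11, Pomc had the smallest p of the 3 tested (log2FC -0.64, SE 0.43, adjusted p = 0.647 in edgeR). Pitx1 had the highest level of the list, at 6.41 ± 1.46 CPM in deletion and 6.22 ± 1.52 CPM in wild-type libraries (SD, n = 5 each). Cga and Hesx1 had at most 1 count in any library. Of 8 forebrain markers 3 were tested and none passed, with Six3 at the smallest p (log2FC 0.26, SE 0.11, adjusted p = 0.411 in edgeR), and Lhx8, of basal forebrain cholinergic neurons, was at 0. Gbx2, the 1 hindbrain marker tested, had a log2FC of 0.37 (SE 0.79, adjusted p = 0.925 in edgeR).

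Cck, in a list of peptides of the Edinger-Westphal nucleus, had a log2FC of -0.23 (SE 0.15, adjusted p = 0.652 in edgeR), and Ucn was at 0. Of 6 skeletal muscle markers only Acta1 was tested (log2FC 0.29, SE 0.33, adjusted p = 0.832 in edgeR), and Myog was at 0. None of the 8 midbrain, 8 ventral midbrain and 7 general neuron markers passed. The smallest p among them belonged to En1 (log2FC -0.16, SE 0.12, adjusted p = 0.683 in edgeR), Pitx3 (-0.18, SE 0.16, adjusted p = 0.757) and Elavl3 (0.08, SE 0.06, adjusted p = 0.698), named in the order of those lists.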

How the data were processed

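RNA-seq libraries were made from total RNA of mouse midbrain at embryonic day 14.5, using a Direct-zol kit, per the labels' protocols. What the authors deposited is 1 table of raw gene counts, indexed by Entrez gene ID. The submitters' processing notes name HISAT2, featureCounts and the build mm39. Not given in the sources used here are versions, annotation, strandedness and how reads with several matches were treated. Without strand, reads of overlapping genes on opposite strands cannot be told apart.

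All 10 columns matched a sample by title, and 0 columns stayed without one. Of 30935 gene IDs, 30648 had a symbol in the RefSeq table of GRCm38.p6. The longest transcript in GENCODE M21 (GRCm38) gave each gene's length. No library was a duplicate: chi-square per degree of freedom was at least 5.81 for any pair within a group. The test was that of edgeR 4.0.16 (R 4.3.3) on the counts: filterByExpr, TMM scaling, and a robust quasi-likelihood F test with genotype as the only term, two-sided, adjusted by the Benjamini-Hochberg method over 15288 genes with a threshold of 0.05. CPM are TMM-scaled, with a prior count of 2 on the log2 scale. Depth was 16246892 to 20255728 counts per library, and the floor from a count of 0 covers counting error only, while the 95% intervals of edgeR include the spread between libraries. The samples are described as independent, but no source used here names litters or batches, so p-values measure the spread between these libraries.

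The 8 genes, the gene lists and the tests were chosen with earlier results of these data known. All 8 genes are named. From each other list, the gene with the smallest p and any called gene are named. Genes most like the 8 in pattern were taken by Pearson r from 13261 tested genes whose mean reached 1 CPM and that had a gene symbol. Symbols that start with LOC or with Gm and a digit, or that end in Rik, were left out. Alternatives were RLE and upper-quartile scaling, no filter, a filter on 1 CPM in 5 or more libraries, a replicate block, fits lacking each library in turn, DESeq2 1.42.0, limma-voom (limma 3.58.1), an exact permutation test, union exon lengths, a prior count of 0.5 for the pair correlations, and removal of each library's spline trend (4 degrees of freedom) on transcript length, with and without GC content. The fit with the levels of Dbh and Slc6a2 as a covariate, and the fit without 4 libraries, were added after seeing the data. The test was also tested on simulated data before use, with 50 changed genes per fold at levels of 0.5 to 12 CPM. It recovered 12% of 1.5-fold, 58% of 2-fold, 92% of 3-fold and 98% of 4-fold changes, so smaller changes were mostly missed. The changed genes of all folds were in 1 fit, while only 9 genes were called in the real data. The adjusted threshold was thus less strict in the simulation, and recovery in the real data may be lower. Genes at the lowest levels, such as Chat, were not scored apart.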

Additional observations from a re-analysis of the deposited data

Results flagged for a closer look

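In each group of 5, the highest and lowest library were compared with their neighbours by Dixon's criterion at 95%. This was done for the 8 genes and for the summed level of each of the 17 other lists, 50 groups in all. Chance alone flags about 1 in 20 groups, and 3 of the 50 met the criterion. None of them was a group of values of the 8 genes.

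The summed level of the other motor neuron transcription factors was 88.0 CPM in deletion 4, below the 112 to 121 CPM of the other deletion libraries. The summed level of the general neuron markers was 4227 CPM in deletion 4 as well, and 5045 CPM in the next lowest deletion library. The summed level of the forebrain and basal forebrain markers was 71.2 CPM in deletion 3, against 82.1 CPM in the next lowest deletion library.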

How the results depend on the processing

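None of the 8 genes, of the other lists' genes or of the pairs passed under the alternatives run for it. Pairs were not refitted with no filter, with the block, in DESeq2 or limma-voom, or in the fits added later. Phox2a had the scaling alternatives, the fits lacking 1 library and an unfiltered edgeR fit only. The count over all genes, 9, became 15 with upper-quartile factors, 69 with no filter, 235 in DESeq2, 18 after removal of the trends on length and GC content, 22 with Dbh and Slc6a2 as a covariate, and 0 in limma-voom (1656 at an unadjusted p under 0.05), with the trend on length alone removed (1185), with the 4 libraries left out (718), or under the replicate block (924). With 1 library left out it ran from 0 to 357: 357 without deletion 4, 88 without wild-type 2, 3 without deletion 3 or deletion 6, 1 without wild-type 4, and 0 without any of the remaining 5 libraries. The filter on 1 CPM could not fit Chat and Phox2a. The replicate block rests on numbers shared by the groups (2, 4, 5 and 6). Same-numbered libraries did not deviate together (r of -0.01, -0.00, -0.10 and 0.11 over 14225 genes), so the block is given here only.

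Changes of sign, none of them called, were as follows. The cause was not tested. The log2 fold change of Slc18a3 was -0.39 under the replicate block, -0.047 with the Dbh and Slc6a2 covariate and -0.10 with deletion 2 and 3 and wild-type 5 and 6 left out. That of Prph was 0.056 with the length trend removed, 0.045 with length and GC content removed, 0.022 in the exact permutation test and 0.036 without those 4 libraries. Slc5a7 had 0.00020 with length and GC content removed. Isl1 and Lhx4 had 0.12 and 0.078 without the 4 libraries. With 1 library left out, the log2 values ran from -0.056 to 0.68 for Chat, -0.23 to 0.23 for Slc18a3, -0.15 to 0.13 for Slc5a7, -0.34 to 0.10 for Isl1, -0.59 to -0.12 for Isl2, -0.72 to 0.079 for Phox2a, -0.16 to 0.19 for Prph and -0.29 to 0.041 for Lhx4. Union exon lengths moved no wild-type level per kilobase by more than its SD, but exchanged Isl1 and Lhx4 in the wild-type order. Chat and Phox2a rest on few counts, 65 and 36 over the deletion and 58 and 51 over the wild-type group.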
